A study of Mus musculus with 16 samples.

Results

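Nucleoporins are the proteins that build the nuclear pore complex. The genes described here are those that carry exactly 1 gene symbol on the array and whose symbol is a Nup number, Nupl1 or Nupl2, or is Tpr, Ranbp2, Rae1, Aaas, Sec13, Seh1l, Pom121, Ndc1 or Ahctf1. They were 26 genes of the 30176 with a row of their own, each represented by 1 row. A further 5 genes of the pore had no such row, namely Nup62, Nup214 and Nupl1, whose rows name several genes, and Nup35 and Tpr, which were not matched by symbol. By place in the pore the 26 comprised 9 genes of the Y complex, 4 of the inner ring, 3 of the central channel, 4 of the cytoplasmic side, 4 of the membrane ring and 2 of the nuclear basket.

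A nuclear pore spans both membranes of the nuclear envelope with stacked scaffold rings, the Y complex on either face and the inner ring between them, while nucleoporins rich in phenylalanine and glycine line the channel and bind transport receptors that carry protein and RNA. The complex is taken apart at each mitosis and rebuilt on chromatin. Mammalian oocytes store nucleoporin mRNA and protein, and the cleaving embryo has to furnish new nuclei at every division.

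Signal was read on 16 whole-transcript arrays from the mouse. They took in superovulated and natural-cycle material at 8 stages, which ran from the metaphase II (MII) oocyte over 1-cell embryos, the early and then the late 2-cell stage, and 4-cell and 8-cell embryos to morula and blastocyst. Oocytes came from B6C3F1 females and fertilization from CD1 males, and every array took up the equivalent of 20 pooled oocytes or embryos. Superovulated females received 10 IU PMSG and 10 IU hCG with 48 h in between (4 collection runs, 3096 oocytes and embryos), and natural-cycle females received no gonadotropin (9 runs, 989 oocytes and embryos). The superovulated MII oocytes came from unmated females and the natural-cycle ones from females mated with vasectomized males, so mating and stimulation cannot be told apart at MII. Zygotes of both backgrounds developed in KSOM(aa) medium with the zona intact. Each stage and background had 1 array and no replicate array, so the tests of stage and of superovulation took their error from how far the backgrounds depart from parallel stage courses.

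The values are log2 signals as deposited, which place a gene among the other rows of its array and give no amount per oocyte or embryo. In pooled embryos fewer cells of a type and less RNA per cell cannot be told apart. The level of silent genes was set on each array as the 95th percentile of 1720 olfactory and vomeronasal receptor rows and ran between 4.75 and 5.30. Most markers followed the labelled stages. Of the oocyte genes 10 of 10 were lower in blastocysts than in MII oocytes. Of the 2-cell activation genes 10 of 10 were higher at early 2-cell than at 1-cell. In blastocysts 5 of 5 trophectoderm genes were higher than in MII oocytes. Of 5 measured genes of the inner cell mass and primitive endoderm 3 were higher there and 2 were not called. Of 11 cumulus and granulosa genes measured, 7 lay above the level of silent genes on the superovulated MII array and 5 on the natural-cycle MII array, with summed excesses over that level of 18.66 and 7.93 log2, against 1.16 to 8.29 on the other 14 arrays. At the morula stage the summed excess of the 5 trophectoderm genes was 12.5 on the superovulated array and 26.41 on the natural-cycle array. The part of these differences in the values below was not tested.

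Promoter windows are shown for 4 genes whose courses oppose each other, Nup107 and Nup50, which ended lower in the blastocyst than in the oocyte, and Ranbp2 and Nup205, which ended higher. Each runs, in the RefSeq table for GRCm38.p6, over 250 bases before and 50 after the gene's start, read 5′ to 3′ on the gene's strand. Nup107 lies on the minus strand (chr10:117792656-117792955), and Ranbp2 (chr10:58446602-58446901), Nup205 (chr6:35177366-35177665) and Nup50 (chr15:84923178-84923477) lie on the plus strand. Capitals mark matches, on either strand, to the ETS motif CCGGAAG, the NRF1 motif, the YY1 motif, the CCAAT box CCAAT and the TATA box TATAAA, and no match overlapped another in these windows.
Nup107: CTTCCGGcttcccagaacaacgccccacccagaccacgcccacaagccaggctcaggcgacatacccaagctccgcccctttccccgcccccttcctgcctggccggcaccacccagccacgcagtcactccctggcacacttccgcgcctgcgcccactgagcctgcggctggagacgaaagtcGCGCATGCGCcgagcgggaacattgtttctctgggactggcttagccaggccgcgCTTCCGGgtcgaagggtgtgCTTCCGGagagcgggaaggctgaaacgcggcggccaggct
Nup50: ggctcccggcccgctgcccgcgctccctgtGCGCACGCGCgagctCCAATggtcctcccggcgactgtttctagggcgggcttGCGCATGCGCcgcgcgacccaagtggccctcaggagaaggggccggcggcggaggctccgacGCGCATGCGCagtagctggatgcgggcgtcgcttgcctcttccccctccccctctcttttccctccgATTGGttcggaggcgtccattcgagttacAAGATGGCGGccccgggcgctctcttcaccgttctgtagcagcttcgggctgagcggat
Ranbp2: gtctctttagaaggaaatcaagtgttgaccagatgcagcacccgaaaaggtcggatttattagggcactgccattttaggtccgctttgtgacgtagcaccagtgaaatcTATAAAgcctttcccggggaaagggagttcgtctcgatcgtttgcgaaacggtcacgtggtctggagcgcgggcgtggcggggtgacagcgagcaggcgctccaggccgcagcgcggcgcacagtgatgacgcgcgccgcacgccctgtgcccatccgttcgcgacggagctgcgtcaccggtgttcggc
Nup205: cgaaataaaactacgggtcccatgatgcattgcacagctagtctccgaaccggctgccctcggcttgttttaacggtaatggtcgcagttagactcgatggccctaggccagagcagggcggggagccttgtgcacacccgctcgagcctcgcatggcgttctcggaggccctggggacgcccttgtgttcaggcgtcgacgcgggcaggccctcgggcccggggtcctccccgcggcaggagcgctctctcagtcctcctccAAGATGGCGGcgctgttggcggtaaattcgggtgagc

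Of the 26 genes 22 had a window in the table, 25 windows in all, and a motif was counted for a gene where any of its windows held it. Composition was taken from the first window of each gene. These promoters were rich in GC, with a median of 64% GC and 27.5 CpG, against 56.3% and 13 over 17492 protein-coding genes. The YY1 motif was held by 4 of 22 genes (18.2%), Nup188, Nup205, Nup50 and Nup88, and by 1.76% of coding genes. The ETS motif was held by 7 of 22 (31.8%), Aaas, Nup107, Nup155, Nup37, Nup54, Rae1 and Sec13, against 12.9% of coding genes. NRF1 matched 3 genes (13.6% against 3.54%), the CCAAT box 7 (31.8% against 42.3%), TATAAA 3 (13.6% against 14.8%; Nup93 through its other window), the E2F motif TTTCCCGC 1 (4.55% against 1.61%) and the ZNF143 motif ACTACAA none (4.19% of coding genes). Nup107 held 3 ETS matches, at -250, -10 and 11 from the start, and 1 NRF1 match at -65. Nup50 held 3 NRF1 matches, 2 CCAAT boxes and the YY1 motif, which began at -9. The single YY1 match of Nup205 began at 14, and the window of Ranbp2 held only TATAAA, at -140. Motifs were not tested against the courses of the genes. Of the 4 genes with a YY1 match, Nup205 was higher in blastocysts than in MII oocytes, Nup50 and Nup88 were lower, and Nup188 was not called. The calls on Nup50 and Nup88 were lost when some single arrays were left out.

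Most nucleoporins were detected in oocytes and at every embryonic stage. On all 16 arrays 24 of the 26 genes exceeded the level of silent genes. The exceptions were membrane proteins, Nup210 (gp210), which exceeded it on 9 arrays, and its relative Nup210l, which did so on 7. Nup210 read 6.64 and 6.79 in superovulated and natural-cycle blastocysts, and 4.78 to 6.05 at the stages before the morula. Nup210l never exceeded 6.01. Both are reported as dim genes.

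The stage changed the signal of 25 of 26 nucleoporins (limma F test over 8 stages, adjusted p below 0.05), in a table where 57.5% of all rows and 87.9% of rows with a mean above the level of silent genes passed. Nup188, a large scaffold protein of the inner ring, did not (adjusted p = 0.17), and its stage means lay within 0.97 log2 of each other. The widest ranges of stage means were those of Nup133 (4.03), Nup37 (3.58) and Ranbp2 (3.54). The genes did not share 1 course. By stage mean 7 of the 26 were highest at 1-cell, 5 at 8-cell, 3 each at morula and blastocyst, and 2 each at the other stages, whereas 7 were lowest at early 2-cell and 5 at late 2-cell. Of rows above the level of silent genes 13.1% were highest at 1-cell and 11.8% at 8-cell, and 13.6% were lowest at early 2-cell and 7.82% at late 2-cell. Of the same rows 22.4% were highest at blastocyst, against 3 nucleoporins. At MII 18.5% were lowest and at 1-cell 17.6%, against 2 and 3 nucleoporins.

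**Figure D1:**
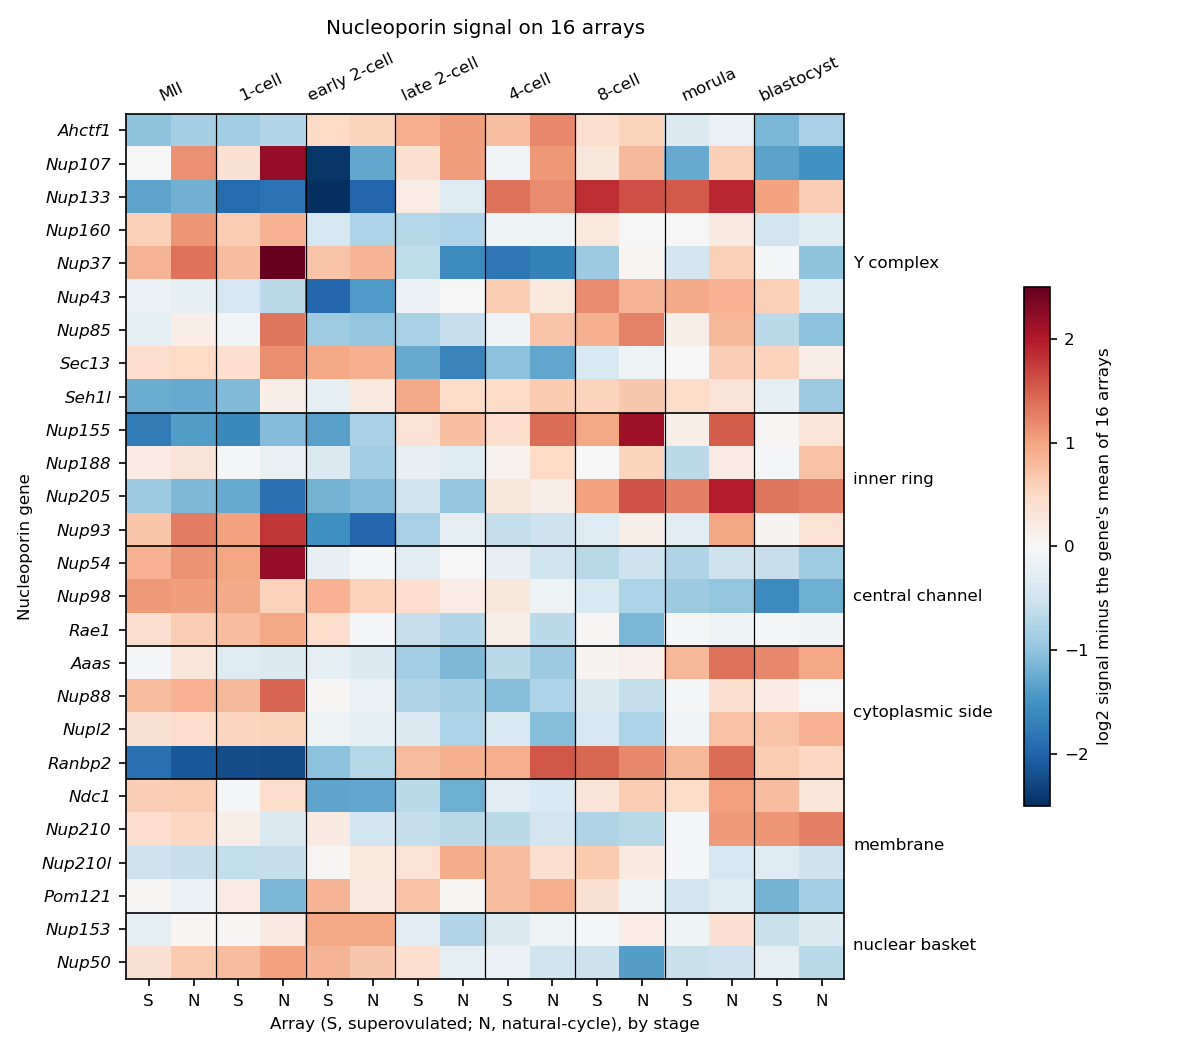
Log2 signal of 26 nucleoporin genes (rows, grouped by place in the pore) on 16 arrays (columns, by stage, superovulated left of natural-cycle), minus the mean of each gene over the arrays. Nup93 is darkest blue at early 2-cell on both backgrounds, and Nup107 is so on superovulated arrays. The natural-cycle value of Nup107 is lowest at blastocyst (8.39, against 8.59 at early 2-cell). Ranbp2 and Nup133 pass from blue to red after the early 2-cell stage, and Nup98 passes from red to blue.

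Between MII and 1-cell no nucleoporin was called. None of 26 had an unadjusted p below 0.05, against 6.34% of all rows, and the plain analysis of variance called none either. Of all rows 0.235% were called. Differences of 1-cell embryos from MII oocytes ran between -0.63 (Nup133) and 0.79 (Seh1l) as means of both backgrounds. The backgrounds parted for some genes, with a superovulated and a natural-cycle difference of -0.10 and 1.57 for Nup37, 0.15 and 1.43 for Seh1l, 0.15 and 1.17 for Nup85, 0.39 and 1.06 for Nup107, 0.12 and 1.06 for Nup54, and 0.17 and -0.99 for Pom121.

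From 1-cell to early 2-cell 8 nucleoporins fell and 4 rose, 12 of 26 (46.2%), with 21.5% of all rows (11.4% higher and 10.1% lower) and 35.7% of rows above the level of silent genes called. The median difference was -0.28 over the nucleoporins and 0 over all rows. With arrays centred on the brighter rows the split was 2 higher and 9 lower, with 2730 higher and 3948 lower over all rows. Without the natural-cycle 1-cell array, or without the natural-cycle early 2-cell array, 7 were called.

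The largest falls were those of Nup107 and Nup93, a member of either scaffold ring. Nup107, at the core of the Y complex, read 7.47 and 8.59 in superovulated and natural-cycle early 2-cell embryos, against 10.27 and 12.09 in 1-cell embryos. Both early 2-cell values lay below both 1-cell values, and the fall of 3.15 ± 0.43 (SE) was 8.9-fold (limma adjusted p = 0.000258). Nup93, which ties the inner ring to the channel proteins, read 8.59 and 8.16, against 11.13 and 11.91 at 1-cell, a fall of 3.15 ± 0.35 (8.86-fold, adjusted p = 5.85e-05). Both calls held without any 1 of the 16 arrays.

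Other members of the Y complex fell less. Nup160, one arm of the complex, read 11.41 and 11.07 in early 2-cell embryos, against 12.49 and 12.72 in 1-cell embryos (-1.37 ± 0.27, adjusted p = 0.00299). Nup85 read 9.72 and 9.62, against 10.54 and 11.94 (-1.57 ± 0.37, adjusted p = 0.01). Nup43 read 9.48 and 10.02, against 11.03 and 10.78 (-1.16 ± 0.32, adjusted p = 0.0221). The call on Nup85 was lost without the natural-cycle 1-cell or the natural-cycle early 2-cell array (limma adjusted p = 0.116 to 0.123). The call on Nup43 was lost without either 1-cell array or without the superovulated early 2-cell array (adjusted p = 0.0795 to 0.219).

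Outside the Y complex, Nup54, a channel protein that works in the Nup62 complex, fell by 1.71 ± 0.34 (adjusted p = 0.00311), with 9.87 and 10.03 in early 2-cell embryos against 11.06 and 12.26 in 1-cell embryos. Ndc1, a transmembrane protein that anchors the pore, fell by 1.51 ± 0.31 (adjusted p = 0.00384). Its values were 11.16 and 11.18, against 12.45 and 12.92. Nup88, of the cytoplasmic side, fell by 1.20 ± 0.28 (adjusted p = 0.00832), with 8.84 and 8.65 against 9.62 and 10.26. For Nup54, Ndc1 and Nup88 too the early 2-cell values lay below the 1-cell values on both backgrounds. Nup88 was not called without the natural-cycle 1-cell or the natural-cycle early 2-cell array (limma adjusted p = 0.092 to 0.0965).

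The 4 genes that rose at this step came from different parts of the pore. Ahctf1 (ELYS), which binds chromatin and recruits the Y complex after mitosis, read 12.56 and 12.61 at early 2-cell, against 11.18 and 11.32 at 1-cell (1.34 ± 0.23, 2.53-fold, adjusted p = 0.00115), and its call held without any 1 array. Ranbp2 (Nup358), the SUMO ligase of the cytoplasmic filaments that binds Ran, read 10.01 and 10.32, against 8.83 and 8.81 (1.35 ± 0.29, adjusted p = 0.00548). Without the natural-cycle early 2-cell array Ranbp2 missed the threshold (1.24, adjusted p = 0.0569). Nup153, of the nuclear basket, rose by 0.85 ± 0.26 (adjusted p = 0.0342), and this call was lost without either array of the 1-cell, early 2-cell, 4-cell or 8-cell stage (adjusted p = 0.0516 to 0.168). The dim gene Nup210l was also called (adjusted p = 0.0353), at 5.10 and 5.34 against 4.45 and 4.47, of which only the 5.34 of the natural-cycle array lay above the level of silent genes, so that no size of change is given, and its call was lost without either MII array, either 1-cell array or the natural-cycle early 2-cell array (limma adjusted p = 0.0507 to 0.268). Pom121, a transmembrane protein of the pore, was not called (1.03 ± 0.37, adjusted p = 0.0729), with 13.38 and 12.77 against 12.72 and 11.38. It was called without the superovulated 1-cell array (1.60, adjusted p = 0.0162), as was Nup37 (-2.07, adjusted p = 0.0467).

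From early to late 2-cell 6 nucleoporins rose and 2 fell, 8 of 26 (30.8%), with 19% of all rows (10.5% higher and 8.56% lower) and 33.5% of rows above the level of silent genes called. After loess scaling 5 rose and 8 fell, with 2805 higher and 3335 lower over all rows. The median difference over the 26 genes was 0.11 as deposited and -0.31 after loess.

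Nup107 was back at 10.29 and 10.95 in late 2-cell embryos, against 7.47 and 8.59 in early 2-cell embryos (2.59 ± 0.43, 6.02-fold, adjusted p = 0.00152). Nup133, its partner at the foot of the Y, read 11.32 and 10.82, against 8.52 and 9.16 (2.23 ± 0.30, 4.69-fold, adjusted p = 0.000525). Nup43 rose by 1.61 ± 0.32 (adjusted p = 0.00436), a call lost without the superovulated early 2-cell array or the natural-cycle late 2-cell array (adjusted p = 0.0544 to 0.0634). These 3 Y complex genes stood higher at late 2-cell on both backgrounds.

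In the inner ring Nup155, a scaffold protein that contacts the membrane, read 10.09 and 10.47 in late 2-cell embryos, against 8.36 and 8.91 in early 2-cell embryos (1.64 ± 0.31, adjusted p = 0.00355). Nup93 read 9.31 and 9.88, against 8.59 and 8.16 (1.22 ± 0.35, adjusted p = 0.0295), and thus stayed below its 1-cell values of 11.13 and 11.91. The call on Nup93 was lost without either late 2-cell array or the natural-cycle early 2-cell array (limma adjusted p = 0.0793 to 0.298) and after loess scaling. Ranbp2 rose a second time, to 11.84 and 11.92 (1.72 ± 0.29, adjusted p = 0.00175).

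Against these, Sec13 fell by 2.39 ± 0.33 (5.24-fold, adjusted p = 0.000554). Sec13 belongs to the Y complex and also to the COPII coat of vesicles that leave the endoplasmic reticulum. It read 8.76 and 8.35 at late 2-cell, against 10.98 and 10.91 at early 2-cell. Nup153 fell by 1.48 ± 0.26 (adjusted p = 0.00204), with 12.80 and 12.35 against 14.06 on both early 2-cell arrays. Nup37, another Y complex member, missed the threshold (-1.91 ± 0.62, adjusted p = 0.0509), at 9.40 and 8.45 against 10.76 and 10.90. It passed without either 1-cell array, either blastocyst array or the superovulated late 2-cell array (adjusted p = 0.0204 to 0.0357). The 9 measured genes of the Y complex thus split at this step into 3 that rose, 1 that fell and 5 not called, with a median difference of 0.43. The dim gene Nup210l was called without the superovulated late 2-cell array. Its superovulated early 2-cell value of 5.10 lay below the level of silent genes, so that again no size of change is given.

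**Figure D2:**
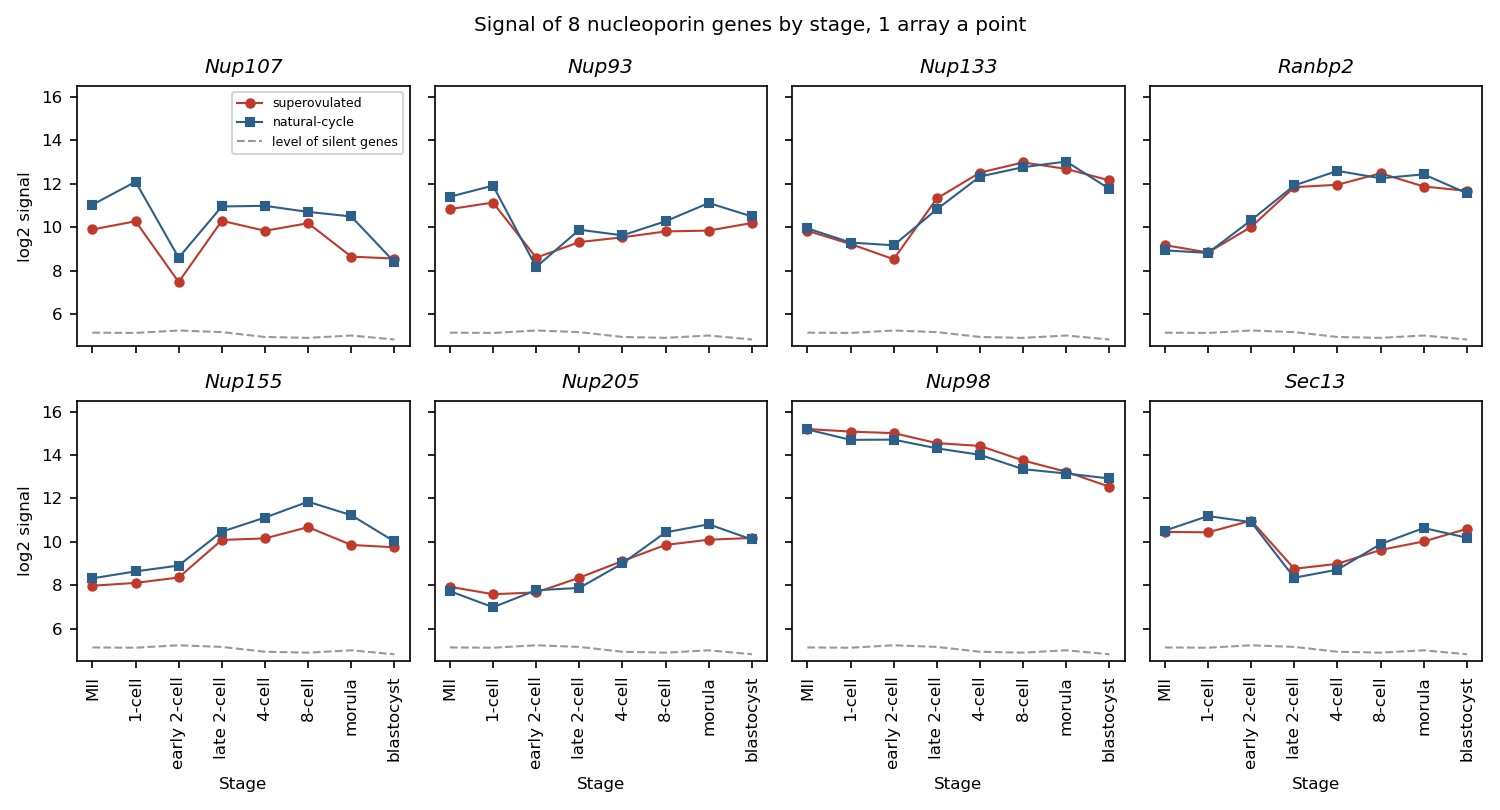
Log2 signal of 8 nucleoporin genes over 8 stages, superovulated (red circles) and natural-cycle (blue squares), 1 array a point, with the level of silent genes averaged over the 2 arrays of a stage (dashed). Nup107 dips to 7.47 and 8.59 at early 2-cell, Nup133, Ranbp2 and Nup155 step up by late 2-cell, Nup98 falls in small steps and Sec13 is lowest at late 2-cell.

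After the 2-cell stage few single steps were called. From late 2-cell to 4-cell 1 of 26 nucleoporins was called, with 2.07% of all rows. This was Nup133, at 12.51 and 12.33 in 4-cell embryos against 11.32 and 10.82 in late 2-cell embryos (1.35 ± 0.30, adjusted p = 0.0471). The call was lost without any 1 of 12 arrays, those of all stages but early 2-cell and blastocyst (adjusted p = 0.0525 to 0.233).

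From 4-cell to 8-cell limma called none of 26, with 6.96% of all rows called, and 6 genes (23.1%) had an unadjusted p below 0.05, against 20.5% of all rows. The closest to the threshold were Nup205, the inner ring scaffold related to Nup188 (1.08 ± 0.33, adjusted p = 0.0741), and Aaas (ALADIN), which Ndc1 holds at the pore (0.88 ± 0.27, adjusted p = 0.0815). Both were called with arrays centred on the brighter rows, among the brighter rows alone and with array weights, and the plain analysis of variance called 1 other gene, Ahctf1.

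From 8-cell to morula limma again called none of 26, with 1.82% of all rows called, 7 genes (26.9%) at an unadjusted p below 0.05, against 13.3% of all rows, and 1 called by the plain analysis of variance. Nup210 came closest (1.24 ± 0.33, adjusted p = 0.0902). Its values were 5.50 and 6.59 in morulae, against 4.78 and 4.83 in 8-cell embryos, where it lay below the level of silent genes. Nup210 was called with arrays centred on the brighter rows (limma adjusted p = 0.0393) and among the brighter rows alone (adjusted p = 0.0438). Aaas was called after loess scaling (1.07, adjusted p = 0.041). Without the superovulated morula array Nup210 (1.84, adjusted p = 0.0123) and Nupl2 (1.43, adjusted p = 0.0307), an FG protein of the cytoplasmic side, were called.

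From morula to blastocyst 1 of 26 nucleoporins fell and none rose, with 12.1% of all rows called (6.54% higher and 5.53% lower). Nup85 read 9.94 and 9.58 in blastocysts, against 10.76 and 11.44 in morulae (-1.34 ± 0.37, adjusted p = 0.0379). That call was lost without either array of the MII, 4-cell, 8-cell or morula stage or the natural-cycle blastocyst array (adjusted p = 0.0512 to 0.327). At this step 7 of 26 nucleoporins (26.9%) had an unadjusted p below 0.05, as had 24.3% of all rows. Of the 9 Y complex genes 6 did. The median difference of the 26 was -0.38 as deposited and -0.15 after loess scaling, where none was called. That of the 9 Y complex genes was -0.78 as deposited, against -0.06 over all rows. Differences were uneven between backgrounds, with -0.08 on superovulated and -2.10 on natural-cycle arrays for Nup107, and 0.43 and -1.60 for Nup37. Nup107 read 8.55 and 8.39 in blastocysts, against 8.64 and 10.49 in morulae, so that its blastocyst and superovulated morula values were close together. Without the superovulated blastocyst array Nup107 (-1.76, adjusted p = 0.0228) and Nup43 (-1.21, adjusted p = 0.0437) were called too. Without the natural-cycle morula array Nup210 was called (1.27, adjusted p = 0.0199).

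Over the whole course 5 nucleoporins were higher and 6 lower in blastocysts than in MII oocytes, 11 of 26 (42.3%), with 44.5% of all rows (24.5% higher and 20.1% lower) and 67.8% of rows above the level of silent genes called. The split depended on scaling, with 4 higher and 14 lower after loess and 4 higher and 11 lower with arrays centred on the brighter rows. Over all rows 6990 were higher and 6789 lower after loess, and 5786 higher and 7670 lower after centring. The median difference was -0.09 as deposited, -0.73 after loess and -0.37 after centring.

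Ranbp2 gained most. It read 11.67 and 11.56 in blastocysts, against 9.17 and 8.93 in MII oocytes (2.56 ± 0.29, 5.91-fold, adjusted p = 1.51e-05). Between these ends its superovulated values were 8.83, 10.01, 11.84, 11.95, 12.48 and 11.87 from 1-cell to morula, and its natural-cycle values 8.81, 10.32, 11.92, 12.59, 12.25 and 12.43. Every value from late 2-cell on exceeded every earlier one.

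Nup205 read 10.18 and 10.11 in blastocysts, against 7.93 and 7.73 in MII oocytes (2.32 ± 0.33, 4.99-fold, adjusted p = 9.19e-05). Its superovulated values from 1-cell to morula were 7.59, 7.67, 8.35, 9.12, 9.86 and 10.10, and its natural-cycle values 6.99, 7.77, 7.88, 9.01, 10.44 and 10.81, with no single step called. Nup133 read 12.15 and 11.76, against 9.83 and 9.94 (2.07 ± 0.30, adjusted p = 0.000126), and its highest values were 12.98 on the superovulated 8-cell array and 13.02 on the natural-cycle morula array. Nup155 read 9.75 and 10.02, against 7.98 and 8.32 (1.74 ± 0.31, adjusted p = 0.000648), after a maximum of 10.68 and 11.85 at 8-cell. The 4 calls held without any 1 array and under every scaling. Aaas read 11.36 and 11.13, against 10.12 and 10.47 (0.95 ± 0.27, adjusted p = 0.013), and was not called without the superovulated MII or superovulated blastocyst array (adjusted p = 0.0825 to 0.123) or under either other scaling.

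Among the genes that ended lower, Nup98, an FG protein that works with Rae1 in mRNA export, showed the largest fall (-2.46 ± 0.24, 5.51-fold, adjusted p = 4.95e-06). The Nup98 transcript also encodes the Y complex protein Nup96, so its row speaks for both. It read 12.54 and 12.92 in blastocysts, against 15.20 and 15.18 in MII oocytes. In between the superovulated values were 15.08, 15.01, 14.55, 14.42, 13.75 and 13.23 from 1-cell to morula, and the natural-cycle values 14.70, 14.71, 14.31, 14.01, 13.35 and 13.15. No neighbouring pair of stages differed by a called step as deposited. After loess scaling the fall between early and late 2-cell was called (-1.21, adjusted p = 0.0158).

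Nup107 read 8.55 and 8.39 in blastocysts, against 9.89 and 11.03 in MII oocytes (-1.99 ± 0.43, adjusted p = 0.00225). Nup54 read 9.50 and 9.19, against 10.94 and 11.20 (-1.73 ± 0.34, adjusted p = 0.00111), and Nup160 read 11.39 and 11.54, against 12.44 and 12.95 (-1.23 ± 0.27, adjusted p = 0.00233). For Nup98, Nup107, Nup54 and Nup160 the blastocyst values lay below the MII values on both backgrounds, and the calls held without any 1 array. Nup50, which binds Nup153 in the basket, fell by 0.96 ± 0.30 (adjusted p = 0.022), with 12.60 and 12.16 against 13.21 and 13.47. Its call was lost without the natural-cycle MII or natural-cycle blastocyst array (adjusted p = 0.107 to 0.21). Nup88 fell by 0.74 ± 0.28 (adjusted p = 0.0485), a call lost without any 1 of 12 arrays, those of all stages but 1-cell and morula (adjusted p = 0.056 to 0.243).

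Just outside the threshold lay Nup37 (-1.62 ± 0.62, adjusted p = 0.0511), Pom121 (-0.96 ± 0.37, adjusted p = 0.0549), Nup93 (-0.78 ± 0.35, adjusted p = 0.0959) and Nup85 (-0.82 ± 0.37, adjusted p = 0.0998). Each was called lower after loess scaling (limma adjusted p = 0.00637 to 0.0133) and with centred arrays (adjusted p = 0.00934 to 0.0234). Nup37 was called without either 1-cell array, either late 2-cell array or the superovulated blastocyst array (adjusted p = 0.0198 to 0.036). Pom121 was called without either 1-cell array or the natural-cycle blastocyst array (adjusted p = 0.025 to 0.0308). Nup85 was called without the superovulated blastocyst array (-1.27, adjusted p = 0.035), and Nup210 without either morula array (0.71, adjusted p = 0.0285 and 0.0291). Rae1, the partner of Nup98, was not called between blastocyst and MII oocyte as deposited (10.15 and 10.11 in blastocysts, 10.59 and 10.81 in MII oocytes). It was called lower after loess scaling (-0.95, limma adjusted p = 0.0365) and with centred arrays (-0.85, adjusted p = 0.0448).

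**Figure D3:**
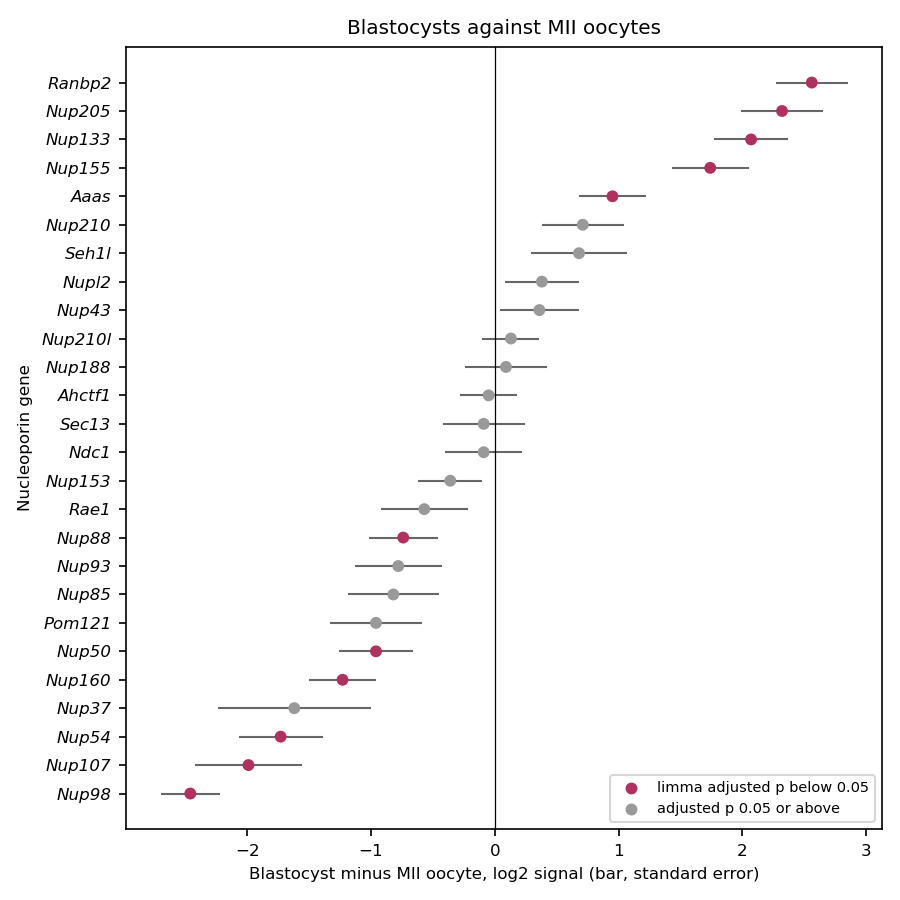
Difference of log2 signal between blastocysts and MII oocytes for 26 nucleoporin genes, ordered by size, with the standard error as a bar and called genes in dark red. The 5 called gains run up to 2.56 (Ranbp2) and the 6 called losses down to -2.46 (Nup98), and scaffold genes stand at both ends.

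As deposited, genes of 1 subcomplex ended at different levels relative to the oocyte. In the Y complex Nup133 was higher in blastocysts, Nup107 and Nup160 lower, and 6 genes were not called. In the inner ring Nup205 and Nup155 were higher and Nup93 and Nup188 were not called. In the central channel Nup98 and Nup54 were lower, on the cytoplasmic side Ranbp2 and Aaas were higher and Nup88 lower, in the nuclear basket Nup50 was lower, and none of 4 membrane genes was called. Under both loess and centred scaling Nup37, Nup85, Nup93, Pom121 and Rae1 were called lower too, and Aaas was not called. Loess scaling added Ahctf1, Ndc1 and Nup153, also lower. The related scaffold genes Nup205 and Nup188 had ranges of stage means of 3.16 and 0.97 log2.

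The genes that work with the pore were followed as lists. Over all rows 11.4% were higher and 10.1% lower at the early 2-cell step, 10.5% and 8.56% at the late 2-cell step, 6.54% and 5.53% at the blastocyst step, and 24.5% and 20.1% between blastocyst and MII oocyte. Of 22 measured transport receptor and Ran cycle genes 6 rose and 2 fell from 1-cell to early 2-cell. The largest changes were those of Tnpo3, which imports splicing factors (4.62 ± 0.28, adjusted p = 5.82e-07), and Xpo5, which exports precursor microRNA (-2.19 ± 0.26, adjusted p = 0.000106). From early to late 2-cell 10 rose and 2 fell, with a further rise of Tnpo3 (3.24) and a rise of Xpo1, the main export receptor for protein (2.27 ± 0.35, adjusted p = 0.00102). From morula to blastocyst none rose and 5 fell, Ipo5 the most (-1.69 ± 0.30, adjusted p = 0.0034). Between blastocyst and MII oocyte 16 were higher and 3 lower, with a median difference of 1.49, against 0.01 over all rows.

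Of 15 measured mRNA export genes 3 rose and 3 fell from 1-cell to early 2-cell, among them the adaptor Alyref (3.75 ± 0.30, adjusted p = 4.54e-06) and, lower, Mcm3ap, a scaffold of the TREX-2 export complex (-2.14 ± 0.32, adjusted p = 0.000448), and 4 were higher and 4 lower in blastocysts than in MII oocytes. Gle1, the export factor at the cytoplasmic face of the pore, fell from morula to blastocyst (-1.61 ± 0.25, adjusted p = 0.00165). Of 15 measured genes of the lamina and envelope 5 rose and none fell from early to late 2-cell, and 7 were higher and none lower in blastocysts than in MII oocytes. At the early 2-cell step 1 rose and 1 fell. From morula to blastocyst 2 rose and 3 fell, among them Nrm (2.01 ± 0.28, adjusted p = 0.00077) and, lower, Zmpste24 (-2.19 ± 0.40, adjusted p = 0.00407). Lemd3, of the inner nuclear membrane, rose at both 2-cell steps (3.38 and 2.01). The lamin B receptor gene Lbr fell between MII and 1-cell (-1.89 ± 0.32, adjusted p = 0.0449), where no nucleoporin was called. This call on Lbr was lost without the natural-cycle 1-cell array.

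Whether superovulation altered nucleoporin signal was asked over the 8 stages. Limma called none of 26, with 0.339% of all rows called, and 4 (15.4%) had an unadjusted p below 0.05, as had 16.2% of all rows. The plain analysis of variance called none. The median difference, superovulated minus natural-cycle, was -0.06 over the nucleoporins and 0.03 over all rows.

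Nup107 came closest (-1.01 ± 0.21, adjusted p = 0.0677). Its superovulated values from MII to blastocyst were 9.89, 10.27, 7.47, 10.29, 9.83, 10.18, 8.64 and 8.55, against 11.03, 12.09, 8.59, 10.95, 10.98, 10.70, 10.49 and 8.39 on natural-cycle arrays. It was lower after superovulation at 7 of 8 stages, the blastocyst being the exception (two-sided exact sign-flip permutation test over 8 stages, p = 0.0156 unadjusted). Nup107 was called after loess scaling (-0.98, adjusted p = 0.0485), with arrays centred on the brighter rows (-1.03, adjusted p = 0.0198), among the brighter rows alone (adjusted p = 0.025), with array weights (adjusted p = 0.0408), and without either blastocyst array (-1.18, adjusted p = 0.0239 and 0.0242).

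Nup155 was lower after superovulation at 8 of 8 stages (-0.69 ± 0.16, adjusted p = 0.0781). Its values were 7.98, 8.11, 8.36, 10.09, 10.16, 10.68, 9.86 and 9.75 after superovulation, against 8.32, 8.64, 8.91, 10.47, 11.12, 11.85, 11.23 and 10.02 in natural cycles. The exact sign-flip p of 0.00781 (unadjusted) is the smallest that 8 stages can give. Without either blastocyst array Nup155 was called (-0.76, adjusted p = 0.0486 and 0.0488), as it was with centred arrays and among the brighter rows. Ahctf1 was also lower at 8 of 8 stages, by a smaller amount (-0.21 ± 0.11, limma adjusted p = 0.391, exact sign-flip p = 0.00781 unadjusted), and Nup93 at 7 of 8 (-0.45 ± 0.17, limma adjusted p = 0.231, exact sign-flip p = 0.0391 unadjusted).

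At single stages the backgrounds could be set side by side without a test. At 1-cell 5 of 26 nucleoporins were lower by at least 1 log2 after superovulation and 1 was higher, where 6.78% and 5.91% of rows above the level of silent genes were. Nup37 read 10.81 after superovulation and 12.96 in natural cycles, Nup107 10.27 and 12.09, Nup85 10.54 and 11.94, Seh1l 9.35 and 10.61, and Nup54 11.06 and 12.26. Pom121 went the other way, with 12.72 after superovulation and 11.38 in natural cycles. Of these 5 lower genes 4 belong to the Y complex, as do 9 of all 26. The other Y complex genes differed by -0.75 (Sec13), -0.23 (Nup160), -0.14 (Ahctf1), -0.07 (Nup133) and 0.25 (Nup43). At the morula stage the median difference of the 26, superovulated minus natural-cycle, was -0.51. Over rows above the level of silent genes it was also below 0 (-0.14). At that stage 5 were lower by at least 1 log2, with 10% of those rows. The summed trophectoderm excess was 12.5 on the superovulated and 26.41 on the natural-cycle morula array, and its part in the morula differences was not tested. At blastocyst differences ran between -0.76 (Nup188) and 0.96 (Nup37), with a median of 0.14, against 0.09 over rows above the level of silent genes.

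**Figure D4:**
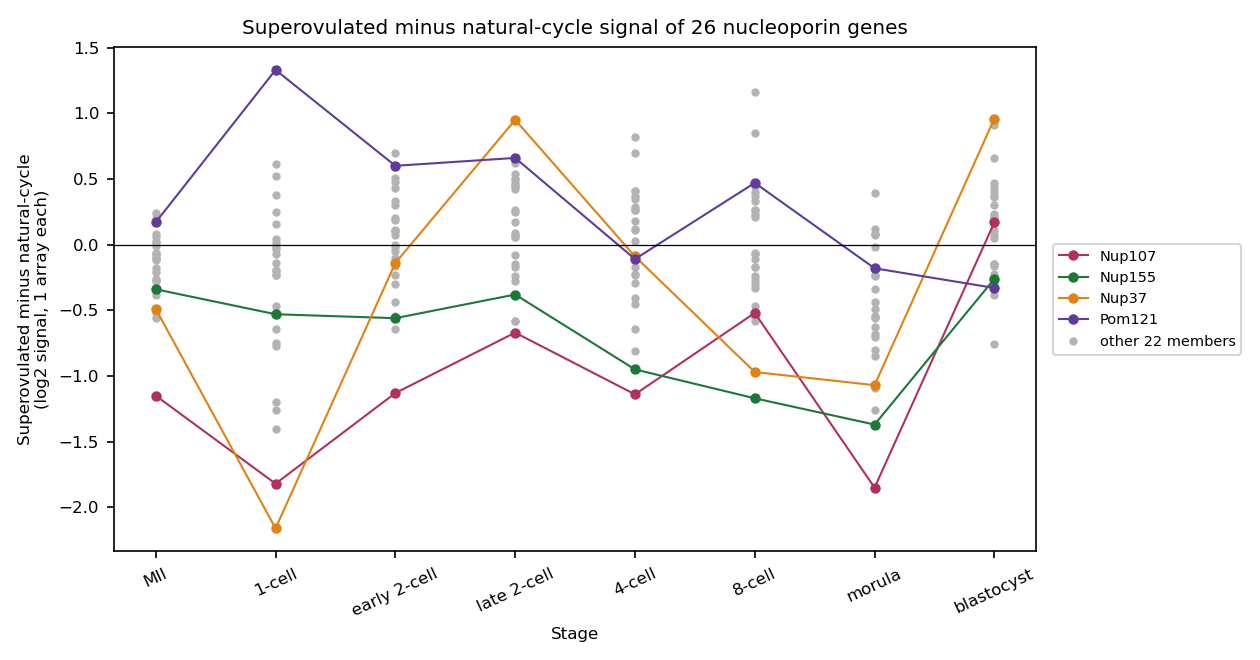
Superovulated minus natural-cycle log2 signal at each of 8 stages for 26 nucleoporin genes, 1 array of each background per stage, with 4 genes joined by lines. Nup107 lies below 0 at 7 of 8 stages and Nup155 at 8 of 8, and most points of the morula stage lie below 0. At that stage the median over rows above the level of silent genes was also below 0 (-0.14).

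Whether the difference between backgrounds changed with development was tested as the contrast of late 2-cell to blastocyst with MII to early 2-cell. Limma called none of 26 nucleoporins and none of all rows (0%). At an unadjusted p below 0.05 stood 2 nucleoporins (7.69%, against 6.22% of all rows), and the plain analysis of variance called none.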

How the data were processed

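RNA of 16 samples was hybridized to Affymetrix whole-transcript arrays. The authors deposited log2 signals, processed with Affymetrix Expression Console per the submitters' notes. The paper names SST-RMA for its blastomere and blastocyst arrays, and the summarization of this series and its annotation build were not given in the sources used here. Of 72688 rows, 186 controls were set aside, and 30638 rows with exactly 1 symbol in the platform annotation were tested (2176 had several, 39688 none).

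Without rescaling, the deposited values were fitted by stage plus stimulation with a mean-variance trend (limma 3.58.1, R 4.3.3), on 7 residual degrees of freedom (6 for the contrast by phase). The number of arrays limits the precision, with a median standard error of 0.227 log2 for a step and 0.113 for superovulation. P-values were two-sided, Benjamini-Hochberg adjustment covered every tested row, and 0.05 was the threshold. The fit was tested on simulated data. All 26 nucleoporins are named, and of each other list up to 2 genes with the largest called change in a step. Members and lists were chosen with earlier results of these data known. Promoter windows and names came from RefSeq (GRCm38.p6). Alternatives covered scaling, row filters, moderation, array weights, the stimulation term, single arrays left out, the mean of a gene's rows, a 90th percentile for silent genes, and a sign-flip test.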

Additional observations from a re-analysis of the deposited data

Results flagged for a closer look

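Nup54, the channel protein of the Nup62 complex, had 1 stage that stood apart from the other 7 in the difference between backgrounds. At 1-cell its superovulated minus natural-cycle difference was -1.2 log2 (11.06 after superovulation, 12.26 in natural cycles), while at the other stages it ran between -0.28 and 0.30. The gap to the nearest stage was 0.615 of the whole range. Chance sets about 1 in 20 such groups of 8 apart, and 26 nucleoporins were measured over the 8 stages. The 2 values come from 1 array each.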

How the results depend on the processing

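Of 33 called differences of single nucleoporins 20 were called under every setting tried, 13 were lost under at least 1, and none changed direction. The setting with the mean of a gene's rows left the nucleoporin values unchanged, since each gene had 1 row, so it was no check on them. Centring arrays on the brighter rows moved all rows by -0.28 between blastocyst and MII oocyte, by -0.19 at the early 2-cell step and by -0.13 at the blastocyst step. The 16 arrays, 1 for each stage and background, limit what single stages can show. No paired analysis was possible because the labels give no replicate numbers to block on, other than by stage, which pairs the backgrounds in the fit and in the sign-flip test.

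After loess scaling 13 nucleoporins were called between early and late 2-cell and 18 between blastocyst and MII oocyte. At the 4-cell step none (0) was called with all rows but controls, with the plain analysis of variance or without a stimulation term. At the 8-cell step 2 were called after centring, among the brighter rows or with array weights, and 1 with the plain analysis of variance. At the morula step the 1 gene called differed between settings. It was Aaas after loess, Nup210 after centring and among the brighter rows, and Ahctf1 with the plain analysis of variance. At the blastocyst step 0 were called after loess, with all rows but controls, with array weights or without a stimulation term, 2 after centring and 3 among the brighter rows. For superovulation 1 was called after loess and with array weights, and 2 after centring and among the brighter rows. An unadjusted exact sign-flip permutation p below 0.05 was reached by 4. That permutation test covered the 26 nucleoporins only, so no share of all rows stands beside its count. By limma 4 (15.4%) had an unadjusted p below 0.05, as had 16.2% of all rows.

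Leaving out 1 array at a time, the nucleoporins called ran from 7 to 13 at the early 2-cell step, 0 to 1 at the 4-cell step, 0 to 2 at the morula step, 0 to 3 at the blastocyst step and 0 to 2 for superovulation.

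Over all rows, the calls between MII and 1-cell were 111 among the brighter rows, 17 with all rows but controls, 9 with the plain analysis of variance, 126 with array weights and 38 without a stimulation term. The same 5 settings gave 1145, 296, 125, a count within 1.5 times of 633, and 279 at the 4-cell step. At the 8-cell step the plain analysis of variance gave 1174, array weights 3740 and no stimulation term 1411. At the morula step the counts were 849 among the brighter rows, 274 with the plain analysis of variance, 219 with array weights and 344 without a stimulation term, and at the blastocyst step array weights gave 2095. With all rows but controls 29068 rows passed the stage test and 22839 differed between blastocyst and MII oocyte. For superovulation loess gave 166, centring 360, the brighter rows 595, array weights 363, and all rows but controls and the plain analysis of variance 0 each. With 1 array left out the counts over all rows ran from 0 to 116 between MII and 1-cell, 3947 to 6824 at the early 2-cell step, 2882 to 6014 at the late 2-cell step, 3 to 630 at the 4-cell step, 330 to 2347 at the 8-cell step, 42 to 842 at the morula step, 1632 to 3788 at the blastocyst step, 0 to 542 for superovulation and 0 to 1 for its change by phase. The causes of these shifts were not tested.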
